A study of Homo sapiens with 26 samples.

Results

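The mitochondrial translation factors are nuclear-encoded proteins that are made by cytosolic ribosomes, imported, and used inside the organelle to translate the mitochondrial mRNAs. The rule listed 10 genes by name and function and used no measured value, although the set was proposed with earlier results of these data known: 2 initiation factors (MTIF2 and MTIF3), 4 elongation factors (TUFM, TSFM, GFM1 and GUF1), 2 release factors (MTRF1 and MTRF1L) and 2 factors of ribosome recycling (GFM2 and MRRF). All 10 were among the 60663 genes of the RNA-seq tables, and 9 were among the 57770 footprint entries that belong to 1 gene. The question put to these genes was where their mRNAs are translated: at the outer mitochondrial membrane (OMM), at the endoplasmic reticulum (ER) or elsewhere in the cytosol.

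The study labelled ribosomes by place with LOCL-TL, in which a biotin ligase that is active only under blue light (LOV-BirA) biotinylates an Avi-tagged ribosomal protein, RPL29-Avi, on ribosomes near it. All cells were HEK293T, a human embryonic kidney line, with the Avi tag knocked in at RPL29. LOV-BirA was added by lentivirus, and the transduced cells were sorted as polyclonal lines. The AKAP1 and LARP4 null lines were single-cell clones, made with a lentiviral gRNA in HEK293T cells that express Cas9. The ligase was fused to Sec61β under the SFFV promoter for the ER, joined to the OMP25 transmembrane segment under the EF1α promoter for the OMM, or left without an anchor for the cytosol. Ribosome profiling had 12 libraries, a streptavidin pulldown and its matched total input from 2 replicate lysates for each of 3 locations, and RNA-seq had 14 libraries, all from cells with the OMM ligase: pulldown and total input from 2 lysates each of wild type cells with a negative control gRNA (WT), AKAP1 null and LARP4 null cells and from 1 lysate without cycloheximide (CHX), a drug that freezes ribosomes on mRNA. The labels of that lysate give neither a genotype nor a gRNA. The other RNA-seq lysates are taken as CHX-treated from the general protocol, which the labels of the null lines do not state. The footprint lysates are taken as CHX-treated from the same protocol. In it, CHX was added shortly before biotin and the pulse of blue light, and the pulse was shorter in experiments without CHX. Each null line was 1 monoclonal line, so clone and genotype cannot be told apart. The labels do not say whether replicates were separate cultures, so the p-values measure at most the spread between these lysates. The fits estimate that spread for each gene over all their libraries and draw it toward that of other genes. An SE given below is thus not the spread of a gene's 2 lysates at 1 location or in 1 genotype.

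The factors act in a known order. MTIF2 places the initiator tRNA on the small mitoribosomal subunit and MTIF3 helps to position mRNA and keep the subunits apart. TUFM, the mitochondrial EF-Tu, delivers aminoacyl-tRNA, TSFM recharges TUFM with GTP, GFM1 moves the tRNAs and mRNA by a codon, and GUF1 is the homologue of bacterial LepA. MTRF1L and MTRF1 read stop codons, and MRRF and GFM2 split the ribosome after release. MTIF2, TUFM, GFM1, GUF1 and GFM2 are the translational GTPases of the set. Proteins of the mitochondrial matrix such as these carry N-terminal targeting sequences, and many mRNAs of this class are known to sit at the mitochondrial surface while they are translated.

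The proteins range from 262 amino acids (MRRF) to 779 (GFM2) in the canonical GENCODE 44 transcripts, and 6 of the 10 are longer than 400: GFM2, GFM1 (751), MTIF2 (727), GUF1 (669), TUFM (455) and MTRF1 (445). The other 4 are MTRF1L (380), TSFM (325), MTIF3 (278) and MRRF. The genes lie on 9 chromosomes of GRCh38: GFM1 on chromosome 3 (158644527 to 158695581, plus strand), GUF1 on 4 (44678420 to 44700928, plus), GFM2 on 5 (74721206 to 74767147, minus), MTRF1L on 6 (152987362 to 153002709, minus), MRRF on 9 (122264603 to 122331337, plus), TSFM on 12 (57782761 to 57808071, plus), MTIF3 and MTRF1 on 13 (27435643 to 27450591 and 41216369 to 41263577, both minus), TUFM on 16 (28842411 to 28846348, minus) and MTIF2 on 2 (55236595 to 55269347, minus). Footprints were counted in coding sequence, but not over all of it: the counting tool leaves out positions that differ between the transcripts of a gene or overlap another gene. The authors also masked positions where reads do not align uniquely, and the part lost for each reason was not determined. The counted part of the canonical coding sequence was 94.6% for GFM2, 81.8% for MTIF2, 79.1% for MTRF1 and 74.8% for MTIF3. It was 60.6% for GUF1, 57.2% for GFM1, 36.7% for TUFM, 29.5% for MRRF and 25% for MTRF1L. TSFM had no footprint entry of its own, since its reads were counted together with those of 2 overlapping genes, EEF1AKMT3 and ENSG00000257921, and that shared entry is described but not tested.

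Coding-sequence totals ran from 1025114 (OMM pulldown, replicate 1) to 19539527 footprints (ER pulldown, replicate 1), and the OMM pulldowns, at most 2506515, were the shallowest. RNA-seq libraries held 38347615 to 100840544 counts. In the RNA-seq tables the HEK293T genes LIN28B (88.9 to 267.8 CPM, counts scaled to the library total), NEFM and PAX2 were detected in all 14 libraries, while PTPRC and ALB did not exceed 0.165 CPM and CD3E was at 0 in all of them. AKAP1 stood at 20.3 to 32.2 CPM in the total inputs of AKAP1 null cells against 114.5 to 119.5 in WT, and LARP4 at 74.0 to 79.3 CPM in LARP4 null cells against 225.0 to 231.3, so both targeted mRNAs were lower in the lines labelled null and neither was at 0. By read headers, ER and OMM replicate 2 were sequenced together, while the cytosol replicate 1 pulldown and total input came from different runs.

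At the OMM, ribosomes on GFM2, GUF1, MTIF2, GFM1 and TUFM mRNA were enriched in the pulldown from 3.11-fold (TUFM) to 12.7-fold (GFM2) over total input, and MTIF3 and MRRF did not pass the test. Of the 7 members with at least 64 footprints in both OMM total inputs, 5 were higher at an adjusted p under 0.05, beside 17.0% of all 6728 genes tested, and 0 were lower, beside 46.0%. Those 5 are the translational GTPases of the set.

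GFM2 was the most enriched member. It gave 528 footprints in the pulldown and 219 in the total input of replicate 1, from libraries of 1025114 and 5091524, and 1384 and 225 in replicate 2. The log2 ratio of pulldown to total input RPKM (reads scaled to length and depth) was 3.55 in replicate 1 (95% interval 3.32 to 3.78) and 3.74 in replicate 2 (3.53 to 3.94); these intervals come from exact binomial limits and cover counting error only. Fitted over both replicates with edgeR's quasi-likelihood test, the log2 enrichment was 3.67 ± 0.13 (SE, adjusted p = 3.00e-13), rank 2 of the 6728 genes.

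GUF1 gave 307 footprints against 182 in replicate 1 and 1153 against 181 in replicate 2. Its log2 ratios were 3.03 (2.77 to 3.31) and 3.78 (3.55 to 4.01), a difference between lysates that exceeds the counting error of either. The SD of its 2 lysate ratios was 0.53. Its fitted log2 enrichment was 3.45 ± 0.17 (SE, edgeR adjusted p = 1.93e-11), where the SE draws on all 12 footprint libraries. It had rank 4 of the 6728 genes, and both lysates were above every lysate of the other members except those of GFM2.

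MTIF2 had log2 ratios of 2.03 (1.69 to 2.35) and 2.59 (2.32 to 2.86), from 142 and 437 pulldown footprints, and a fitted enrichment of 2.35 ± 0.16 (adjusted p = 2.25e-09, edgeR). GFM1 had 1.85 (1.61 to 2.08) and 1.91 (1.75 to 2.09), from 263 and 783 pulldown footprints, and a fitted 1.90 ± 0.12 (adjusted p = 4.14e-10, edgeR). The lysates of these 2 genes did not overlap, MTIF2 being the higher. TUFM, by far the most translated member, had 1445 footprints against 2348 in replicate 1 and 3329 against 2296 in replicate 2, with log2 ratios of 1.58 (1.49 to 1.68) and 1.65 (1.57 to 1.73) and a fitted 1.64 ± 0.09 (adjusted p = 1.07e-10, edgeR). Among the 5, length and enrichment did not run in the same order, since GFM1 is the second longest and had the fourth highest value.

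The 4 members of at most 400 amino acids and MTRF1 stood lower. MTIF3 had log2 ratios of 0.39 (-0.27 to 1.00) and 0.46 (0.03 to 0.89) from 28 and 77 pulldown footprints, and a fitted 0.45 ± 0.21 (adjusted p = 0.0663, edgeR). MRRF had -0.30 (-1.14 to 0.45) and -0.24 (-0.72 to 0.21), and a fitted -0.25 ± 0.23 (adjusted p = 0.357, edgeR). MTRF1, with 51 and 55 total-input footprints, and MTRF1L, with 65 and 58, missed the minimum and were not tested. Their ratios were 0.42 and -0.21 for MTRF1 and 0.70 and 0.40 for MTRF1L, each with an interval that held 0. The entry that TSFM shares with its neighbours had -0.11 and -0.08.

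**Figure D1:**
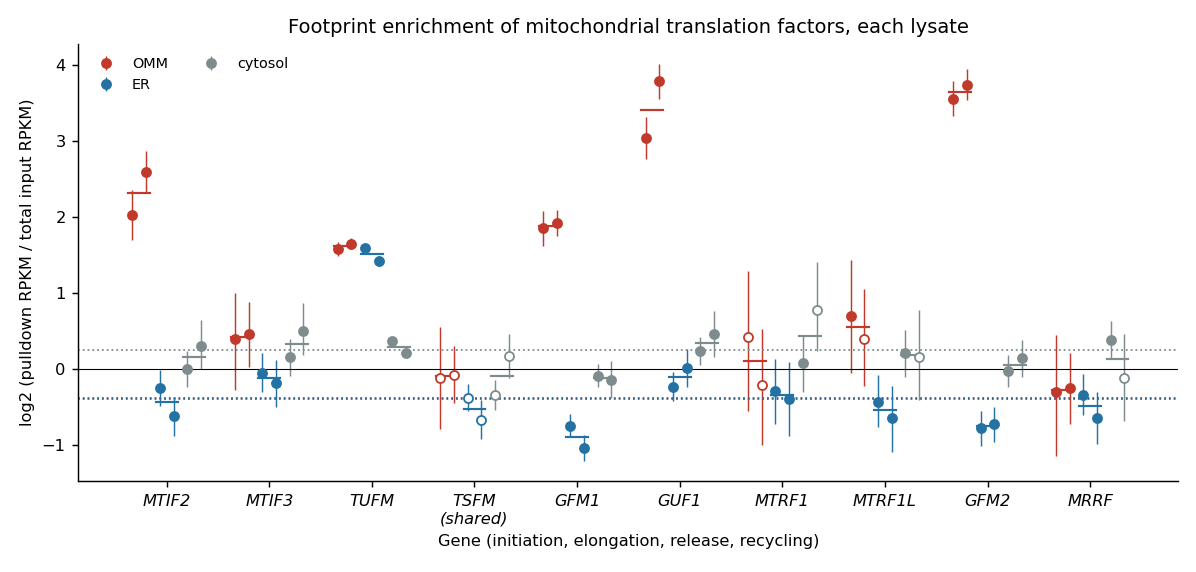
Log2 ratio of pulldown to total input RPKM (y axis) of each translation factor (x axis, ordered by role) in each lysate at the OMM, ER and cytosol; bars are 95% counting intervals, short lines the mean of 2 lysates, open points lysates with fewer than 64 total-input footprints or an entry shared between genes, and dotted lines the median over all genes. GFM2 and GUF1 stand highest at the OMM, and TUFM is high at both the OMM and the ER.

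Enrichment is a relative measure, and the median of all genes tested was not 0. It was -0.38 at the OMM, -0.68 at the ER and 0.02 in the cytosol in these fits, so all 7 members tested at the OMM were above the median gene there, MRRF by 0.13 and GFM2 by 4.04. Scaling by TMM, which sets the bulk of genes near 0, turned the all-gene split at the OMM from 1142 higher and 3092 lower to 1737 and 1644, and the same 5 members were called higher under it. With TMM, MTIF3 was also higher (0.77, adjusted p = 0.00589, edgeR), as it was with DESeq2. Counted over all exons in place of coding sequence, GFM1 was at 2.96 and MTIF2 at 1.62, which reverses their order.

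At the ER, TUFM alone of the members was enriched. It gave 18419 pulldown footprints against 5154 in replicate 1 and 10702 against 2510 in replicate 2, with log2 RPKM ratios of 1.59 and 1.42. The fit, which scales by coding-sequence totals, put it at 1.22 ± 0.09 (adjusted p = 5.06e-10, edgeR), 1 of 9 members tested that was higher, beside 19.8% of 7381 genes. The RPKM ratio is 0.37 and 0.20 higher than the ratio per coding-sequence total in ER replicates 1 and 2, because the pulldowns held a larger share of their reads in coding sequence (52.0% and 53.4%, against 40.3% and 46.6% in the total inputs).

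The other 8 members were lower at the ER, from -0.40 ± 0.15 for MTIF3 to -1.17 ± 0.11 for GFM1, beside 72.0% of all genes. A member's place there is better read against the median gene. GFM1 and GFM2 were below it, by 0.49 and 0.36, and their lysates, at -0.74 and -1.04 for GFM1 and at -0.78 and -0.73 for GFM2, were the lowest of the 9 members. MTIF2, MRRF and MTRF1L were within 0.13 of it, and MTRF1, GUF1 and MTIF3 were 0.06, 0.28 and 0.28 above it. With TMM, only GFM1 (-0.52, adjusted p = 0.000717, edgeR) and GFM2 (-0.39, adjusted p = 0.0104, edgeR) were still lower, GUF1, MTIF3 and MTRF1 turned positive without passing the test, and all genes split into 2156 higher and 1874 lower in place of 1464 and 5317.

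In the cytosol, 0 of 6 members passed the test in edgeR or DESeq2, beside 2.02% of 7162 genes higher and 5.96% lower in edgeR, and 1 had an unadjusted p under 0.05 in edgeR: GFM1, at -0.34 ± 0.11 (adjusted p = 0.0762). The others ran from -0.18 ± 0.12 (GFM2) to 0.09 ± 0.16 (GUF1). MTRF1, MTRF1L and MRRF had only 34, 36 and 41 footprints in the total input of replicate 2 and were not tested. Scaled by all transcript reads, an alternative chosen after the data were seen, TUFM was higher in the cytosol (0.29, adjusted p = 0.0256, edgeR). Under that scaling 2381 of 7162 genes were higher and 253 lower, and the median gene was at 0.25, close to TUFM. Counted over all exons, MTIF2 was lower in the cytosol (-1.16, adjusted p = 1.13e-06, edgeR), beside 614 of 8979 genes lower and 321 higher.

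Tested against each other, the OMM exceeded the ER for 6 of 7 members, beside 31.1% of 6675 genes, and the cytosol for 5 of 6, beside 16.6% of 6465 genes. No member was lower at the OMM in either, beside 18.6% and 39.7% of genes. With TMM all genes split into 949 higher and 1512 lower against the ER, in place of 2074 and 1239, and into 1585 and 1346 against the cytosol, in place of 1070 and 2569. The same OMM lysates enter both comparisons. Against the ER, the differences were between 3.06 and 4.70 on the log2 scale for GFM2, GUF1, GFM1 and MTIF2, 0.85 for MTIF3 and 0.41 for TUFM, and MRRF did not pass (0.51 ± 0.29, adjusted p = 0.156, edgeR). The median of all genes was 0.28 in this contrast, and TUFM lay 0.13 above it. For TUFM and MTIF3 the difference did not pass the test under TMM, where it was 0.09 and 0.53. Within the run that held replicate 2 of both locations, the difference in log2 RPKM ratio was 4.46 for GFM2, 3.77 for GUF1, 3.21 for MTIF2, 2.95 for GFM1, 0.65 for MTIF3, 0.40 for MRRF and 0.23 for TUFM. Against the cytosol, TUFM was 1.58 higher at the OMM and 1.17 higher at the ER. TUFM was thus the 1 member of 6 whose ER value exceeded the cytosol, beside 19.6% of 6809 genes, while GFM2, GFM1, MTIF2 and GUF1 were lower at the ER, beside 62.6%. With TMM that split of all genes, 1333 higher and 4260 lower, became 1969 and 1373, and none of the 4 was called lower.

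The rest of the mitochondrial translation apparatus gave a scale for these values. At the OMM, 17.0% of all 6728 genes were higher and 46.0% lower, with a median of -0.38. Of 39 other genes of this apparatus, in lists chosen with earlier results of these data known, 33 could be tested at the OMM. Of these 33, 17 were higher and 3 lower, with a median of 0.44 against 1.90 for the 7 members. GFM2 and GUF1 had the highest values of these 40 genes. At the ER, 3 of 33 other genes tested were higher, beside 19.8% of all genes, and 26 were lower, beside 72.0%. TUFM had rank 2 there of 42 genes, members included. The values of the lists that follow are again those at the OMM. The 9 mRNA-specific activators and membrane insertion factors had 5 higher and 1 lower at the OMM. They were led by LETM1 (2.82), a protein of the inner membrane, and PTCD3 (2.72), a pentatricopeptide repeat protein of the small subunit. LRPPRC (-0.44, adjusted p = 0.103, edgeR) and MTERF1 (-0.89, lower) were at the foot. Of 15 assembly factors tested, 6 were higher and 2 lower, with METTL17 (2.84) and ERAL1 (1.46), both of the small subunit, at the top and MTG2 (-0.38, adjusted p = 0.123, edgeR) and MTERF4 (-0.37, lower) at the foot. QRSL1 (1.37) and GATB (1.23), subunits of the amidotransferase that makes Gln-tRNA, were both higher. Among other release and rescue factors, MRPL58 (0.66) and PTRH2 (0.44) were higher, and MTRFR was at -0.23 (adjusted p = 0.301, edgeR). Of the 3 genes of initiator tRNA formylation and N-terminal processing, MTFMT was higher (0.84), and PDF (0.02) and METAP1D (-0.02) did not pass.

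In footprints, the cytosolic counterparts mostly stood below the members at the OMM. Of 10 tested, 8 were lower, beside 46.0% of 6728 genes, and 1 was higher, beside 17.0%. Their median was -0.75, against -0.38 for all genes. EIF5B, the cytosolic relative of MTIF2, was at -1.30 and GSPT1, the release factor eRF3, at -0.96, the 2 lowest. EEF1A1, the counterpart of TUFM and a gene with many pseudogene copies that can take away unique reads, was at -0.76, and EEF2, the counterpart of GFM1, at -0.74. The highest were EEF1B2 (0.61), part of the exchange complex that recharges eEF1A, and EIF1AX (-0.24, adjusted p = 0.0996, edgeR).

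The mRNAs of the members were measured by RNA-seq of the OMM pulldown, where reads come from whole transcripts and not from ribosome-protected fragments. In WT cells 6 of 10 members were higher in the pulldown, beside 20.2% of 13856 genes, and 2 were lower, beside 45.6%. With TMM the all-gene split went from 2803 higher and 6324 lower to 4296 and 3847. TUFM led with log2 ratios of 1.91 and 2.14 in the 2 lysates and a fitted 2.02 ± 0.12 (adjusted p = 1.05e-05, edgeR). GFM2 had 1.52 and 1.96 (fitted 1.74 ± 0.12), GUF1 1.47 and 1.90 (1.69 ± 0.17) and GFM1 1.11 and 1.37 (1.24 ± 0.12). These 4 overlapped in part, and only GFM1 lay wholly below the others. MTIF2 had 0.71 and 1.05 (0.88 ± 0.13) and MTIF3 0.62 and 0.87 (0.74 ± 0.09), the 2 initiation factors thus overlapping each other at the mRNA level. The cytosolic counterparts were less apart from the members in mRNA than in footprints. Of 11 tested in WT, 5 were lower and 2 higher, with a median of -0.19. The higher were GSPT1 (0.89) and EEF1B2 (0.69), near MTIF2 and MTIF3, and EIF5B did not pass (0.22, adjusted p = 0.0970, edgeR).

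The remaining 4 mRNAs were at or below 0 in WT. MTRF1 had -0.55 and -0.32 (fitted -0.44 ± 0.13, adjusted p = 0.0148, edgeR) and MRRF -0.28 and -0.31 (-0.29 ± 0.09, adjusted p = 0.0197, edgeR). Both calls were lost under TMM (-0.14 and 0.00), and MRRF lay 0.01 below the all-gene median of -0.28. MTRF1L had -0.33 and -0.16 and TSFM -0.03 and -0.02, which did not pass. The TSFM counts were low, 152 to 419 in the total inputs with CHX.

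Set beside each other, the footprint and mRNA values at the OMM differed by member. The mean footprint log2 ratio exceeded the mean WT mRNA log2 ratio by 1.90 for GFM2, 1.72 for GUF1, 1.43 for MTIF2 and 0.64 for GFM1, and the lysates of the 2 assays did not overlap for these 4 genes. It also exceeded it, without overlap, by 0.80 for MTRF1L and 0.54 for MTRF1, the members with 14 to 36 pulldown footprints. For TUFM it was 0.41 lower and for MTIF3 0.32 lower, again without overlap, and for MRRF it was 0.02 higher, with overlap. TUFM thus led the mRNA order and was the fifth of 7 in the footprint order. Footprints were counted in 36.7% of the coding sequence of TUFM and in 94.6% of that of GFM2. Whether the counted part affects the footprint order was not tested. The difference between the assays was not tested, since they were scaled separately. All genes had medians of -0.40 and -0.38 in the 2 OMM footprint lysates and of -0.27 and -0.31 in the WT mRNA lysates.

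**Figure D2:**
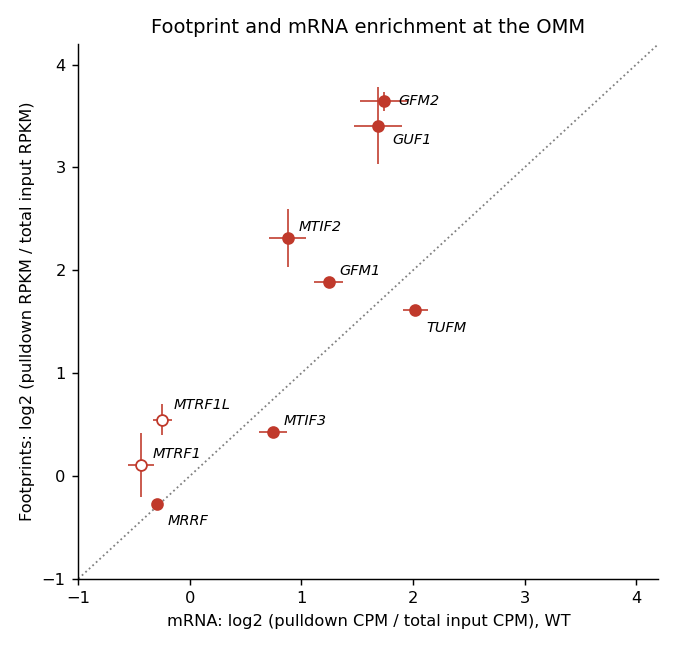
Mean log2 ratio of pulldown to total input of footprints at the OMM (y axis) against that of mRNA in WT cells (x axis) for 9 members; bars span the 2 lysates, open points have fewer than 64 total-input footprints in at least 1 lysate, and the dotted line marks equal values. GFM2, GUF1, MTIF2, GFM1, MTRF1L and MTRF1 lie above the line, MRRF on it within 0.02, and TUFM and MTIF3 below it.

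AKAP1 is an OMM protein that binds RNA and protein kinase A. In AKAP1 null cells the OMM enrichment of 5 member mRNAs was higher than in WT, by 1.95-fold (MTIF2) to 2.72-fold (GFM1), and that of MTIF3 was lower. The 5 higher members were again TUFM, GFM1, GUF1, GFM2 and MTIF2. They stand beside 6.52% of 13856 genes called higher, and MTIF3 beside 7.96% called lower. The median gene rose by 0.19, so relative to it the 5 were higher by 0.78 to 1.26 and MTIF3 was lower by 0.68. With TMM the all-gene split went from 903 higher and 1103 lower to 285 and 1424, and the calls of all 6 members held. With any of the 4 lysates left out, 121 to 208 genes were called higher and 359 to 536 lower.

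For GFM1, the AKAP1 null lysates had log2 ratios of 2.51 and 2.87 against 1.11 and 1.37 in WT, a difference of 1.45 ± 0.16 (adjusted p = 0.000934, edgeR). GUF1 had 2.72 and 3.41 against 1.47 and 1.90, a difference of 1.38 ± 0.23 (adjusted p = 0.00643, edgeR). For GFM2 the values were 2.91 and 3.16 against 1.52 and 1.96, a difference of 1.30 ± 0.17 (adjusted p = 0.00179, edgeR). In each of these 3 genes both null lysates were above both WT lysates.

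TUFM had 2.96 and 3.35 in AKAP1 null cells against 1.91 and 2.14 in WT, a difference of 1.13 ± 0.17 (adjusted p = 0.00342, edgeR). MTIF2 had 1.63 and 2.06 against 0.71 and 1.05, a difference of 0.97 ± 0.18 (adjusted p = 0.00944, edgeR). These groups did not overlap either. Without AKAP1 null replicate 2, the higher of the 2 null lysates for all 5 genes, the differences were 0.75 (MTIF2) to 1.26 (GFM1) and only GFM1 and GFM2 passed, and without WT replicate 1, the lower WT lysate, they were 0.80 to 1.32 and again only those 2 passed.

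MTIF3 went the other way, with 0.31 and 0.19 in AKAP1 null cells against 0.62 and 0.87 in WT, a difference of -0.49 ± 0.13 (adjusted p = 0.0419, edgeR). The groups did not overlap, but the call was lost when any of the 4 lysates was left out (adjusted p from 0.112 to 0.400, edgeR). MTRF1 (0.44 ± 0.18), TSFM (0.48 ± 0.24), MTRF1L (0.22 ± 0.17) and MRRF (0.15 ± 0.13) did not pass. MTRF1 is the 1 member longer than 400 amino acids among these 4, and MTIF3 has 278.

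**Figure D3:**
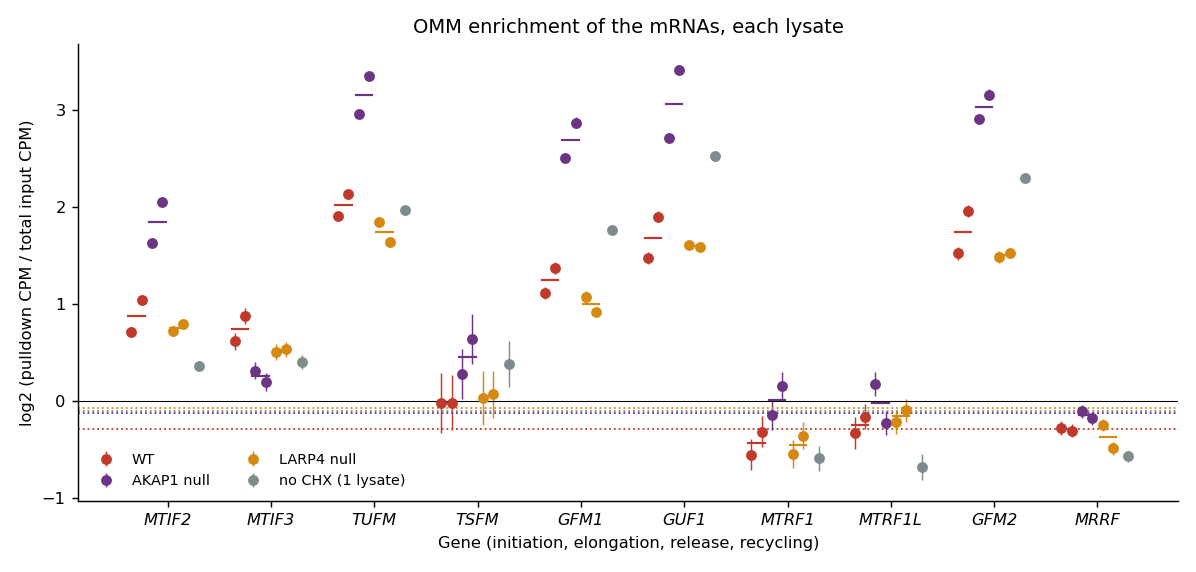
Log2 ratio of pulldown to total input CPM (y axis) of the 10 mRNAs (x axis) in each OMM lysate of WT, AKAP1 null and LARP4 null cells and of the single lysate without CHX; bars are 95% counting intervals, short lines means of 2 lysates and dotted lines medians over all genes. Both AKAP1 null points lie above both WT points for MTIF2, TUFM, GFM1, GUF1 and GFM2 and below them for MTIF3.

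The 5 mRNAs kept an enrichment above 0 in every genotype. Within AKAP1 null cells alone, TUFM reached 3.16, GUF1 3.07, GFM2 3.03, GFM1 2.69 and MTIF2 1.84, all called higher, beside 13.9% of genes, and 0 were lower, beside 28.1%, a split of 1930 and 3892 genes that became 2772 and 2865 with TMM. The other 5 members did not pass, MTIF3 being at 0.25 ± 0.09 (adjusted p = 0.0601, edgeR). With TMM, MTIF3 (0.38, adjusted p = 0.0165, edgeR) and TSFM (0.58, adjusted p = 0.0214, edgeR) were called higher too, 7 members in all, as they were with DESeq2. Among the other mitochondrial translation genes, 17 of 38 were higher in AKAP1 null than in WT, beside 6.52% of 13856 genes. Lower were 2 of the 38, beside 7.96%: SLIRP (-1.79) and MALSU1 (-0.85), of 109 and 234 amino acids. Among the higher were PTCD3 (1.55), QRSL1 (1.40) and FASTKD2 (1.39), of 689, 528 and 710 amino acids. They were picked from the 17 after their values were seen, and a relation between the change and protein length was not tested. Of 11 cytosolic counterparts, 1 was higher, ABCE1 (0.51), and 1 lower, EEF1B2 (-0.76), beside the same 6.52% and 7.96% of all genes.

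LARP4 is an RNA-binding protein of the La-related family that binds poly(A) and AKAP1. In LARP4 null cells 0 of 10 members differed from WT, beside 0.0% of 13856 genes with edgeR. At an unadjusted p under 0.05 there were 0 members and 2270 genes, and DESeq2 called 2 genes higher and 454 lower, 0 members among them. The count over all genes rests on the LARP4 null lysates: without LARP4 null replicate 1 edgeR called 4517 genes higher and 1142 lower, and without replicate 2 it called 3 and 93, in both cases with 0 members. The differences of the members ran from -0.28 ± 0.17 for TUFM to 0.09 ± 0.17 for MTRF1L, with SEs of 0.13 to 0.24 over the 10 genes, and TUFM had 1.84 and 1.64 against 1.91 and 2.14 in WT. All 10 were below the all-gene median of 0.17, and under TMM, where that median was -0.04, TSFM and MTRF1L turned negative. Within LARP4 null cells, 6 members were higher in the pulldown, beside 22.8% of genes: TUFM (1.74), GFM2 (1.50), GFM1 (1.00), MTIF2 (0.76), MTIF3 (0.52) and GUF1, whose lysates were at 1.61 and 1.59. MTRF1 (-0.45) and MRRF (-0.37) were lower, beside 30.0%.

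The 2 null lines were also compared with each other. The same 5 members were higher in AKAP1 null than in LARP4 null cells, by 1.09 (MTIF2) to 1.69 (GFM1), beside 1.72% of genes, and 0 were lower, beside 2.94%; this comparison shares the AKAP1 null lysates with the one above. Without AKAP1 null replicate 2 it called 0 of the 5, with differences still from 0.87 to 1.51, and 0 of all 13856 genes, with 1706 at an unadjusted p under 0.05 in edgeR. Over all genes, 239 higher and 408 lower became 1194 and 3508 without LARP4 null replicate 1 and 932 and 1266 without LARP4 null replicate 2.

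**Figure D4:**
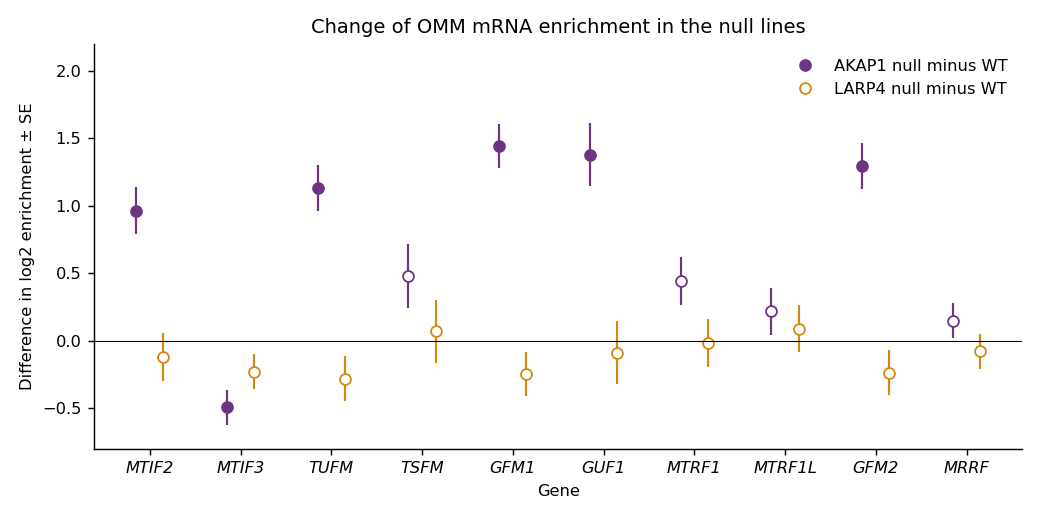
Difference in log2 OMM mRNA enrichment from WT (y axis, ± SE of the edgeR fit) of the 10 mRNAs (x axis) in AKAP1 null and LARP4 null cells; filled points have an adjusted p under 0.05. The filled points are 6 AKAP1 null values, 5 above 0 and MTIF3 below.

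The amount of these mRNAs in the cell was compared in the total inputs, where fewer cells with an mRNA and less of it per cell cannot be told apart. In AKAP1 null cells 0 of 10 members differed from WT, beside 0.0% of 13977 genes in edgeR, with 0 members and 489 genes at an unadjusted p under 0.05, and DESeq2 called 8 genes higher and 7 lower, 0 members among them. The changes of the 5 GTPases were between -0.11 ± 0.12 (TUFM) and 0.14 ± 0.17 (GFM2), against the 0.97 to 1.45 seen in their pulldown ratios, and the largest of the 10 was 0.35 ± 0.19 for MTRF1L. In LARP4 null cells 0 of 10 differed, beside 0.00715% of genes called in each direction in edgeR and 0 of 10 in DESeq2, and 1 member had an unadjusted p under 0.05. That was GFM1, at 0.69 ± 0.25 (adjusted p = 0.990, edgeR), which had 79.2 CPM in LARP4 null replicate 1 and 135.8 in replicate 2, the deepest library, against 59.99 and 75.94 in WT. Without that replicate the change was 0.23, and with no filter on low counts it passed the test (adjusted p = 0.000413, edgeR).

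Without CHX there was 1 lysate, and its difference from WT was described and not tested. Ribosomes can run off mRNAs there, and this lysate also had a shorter light pulse. Its labels give no genotype or gRNA, while the WT cells carried a negative control gRNA. The effects of drug, pulse and any difference in cell line thus cannot be told apart. GUF1 had a log2 ratio of 2.53, 0.84 above the WT mean, GFM2 2.30 (0.56 above) and GFM1 1.76 (0.52 above), each above both WT lysates. TUFM, at 1.97, lay between its WT lysates. MTIF2, at 0.36, was 0.51 below its WT mean, MTRF1L was 0.44 below, MTIF3 0.34, MRRF 0.28 and MTRF1 0.15, and TSFM was 0.40 above. The same difference over all genes had a median of 0.16 and 5th and 95th percentiles of -0.57 and 1.06, so each of the 10 lay inside the range of most genes.

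The members differed widely in level. Footprint RPKM in the total inputs, which is per length, was highest for TUFM, with a median of 373.0 over 6 libraries (324.6 to 569.2). MRRF followed at 37.5 (17.2 to 51.8), then GFM1 at 23.0, MTRF1L at 18.4, MTIF3 at 15.4, GUF1 at 12.4, GFM2 at 8.56, MTIF2 at 6.86 and MTRF1 at 4.12. Only the steps from TUFM to MRRF, from GUF1 to GFM2 and from MTIF2 to MTRF1 separated genes without overlap of their ranges. The values of MRRF and MTRF1L rest on less than 30% of the coding sequence.

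In mRNA, as FPKM (fragments scaled to length and depth) computed from counts and lengths over 7 total inputs, TUFM was again first, at 93.1 (80.6 to 103.9). MTIF2 was second at 30.8 and MTIF3 the third at 23.4, then GUF1 at 16.3, GFM2 at 15.8, MRRF at 7.55, GFM1 at 6.44, MTRF1L at 4.504, MTRF1 at 4.28 and TSFM at 1.29. MTIF2 was thus second in mRNA and eighth of 9 in footprints, on separate scales. GUF1 and GFM2, MRRF and GFM1, GFM1 and MTRF1L, and MTRF1L and MTRF1 overlapped in range, as did MTIF3 and GUF1, while TSFM lay below all others. FPKM was set per length of all annotated exons, which is 11789 bases for GFM1 and 11035 for MRRF.

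**Figure D5:**
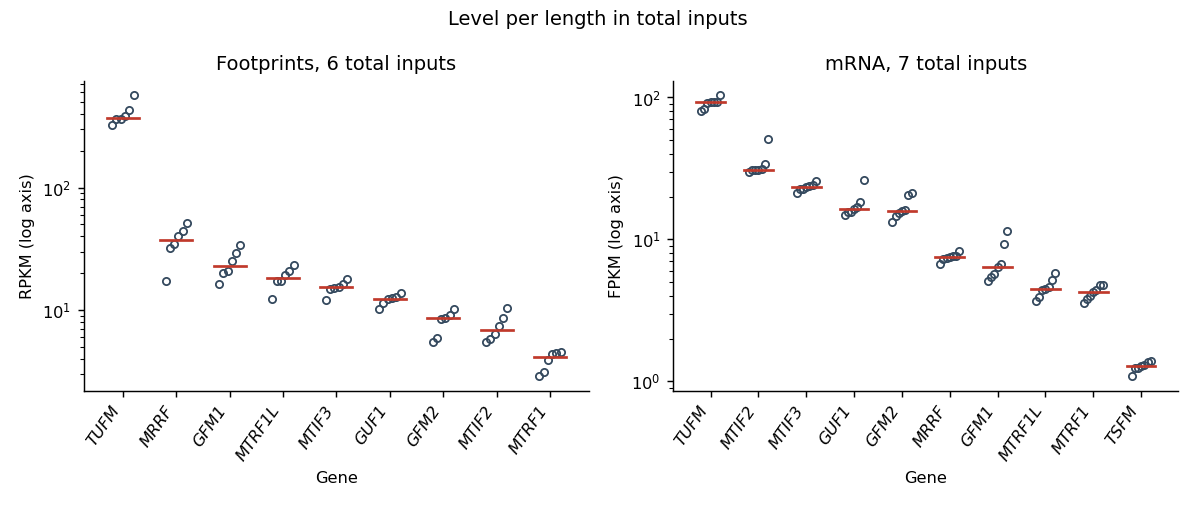
Level per length of the members in total inputs on a log axis: footprint RPKM of 9 members in 6 libraries (left) and mRNA FPKM of 10 members in 7 libraries (right), with points for libraries and lines for medians. TUFM is highest in both, at medians of 373.0 RPKM and 93.1 FPKM.

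The genes whose pattern was most like a member's were found by the distance between log2 ratios over 12 lysates, 6 of ribosome profiling and 6 of RNA-seq with CHX, among 6430 genes. GUF1 was nearest to IARS2, the mitochondrial isoleucyl-tRNA synthetase (distance 0.925), then to GFM2 (1.19), and GFM2 was nearest to the same IARS2 (1.02). MTIF2 was nearest to FASTKD2 (0.791), TRAP1 (0.945) and MARS2 (0.982), the last a mitochondrial methionyl-tRNA synthetase. GFM1 had ACSS1 (0.978), MMUT (1.14) and ELAC2 (1.28), all mitochondrial proteins. MTIF3 had BIRC5 (0.384), CINP (0.390) and YBEY (0.414). TUFM had the most distant neighbours, YARS2 (2.05), EXD2 and AIFM1 (2.24).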

How the data were processed

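Ribosome profiling and RNA-seq files were analysed as deposited, 1 library per file. For footprints the authors removed rRNA and tRNA reads with Bowtie, aligned with TopHat to GRCh38, kept unique reads of 27 to 36 nt and used plastid on Ensembl annotation. The authors deposited the estimated counts per gene, over coding sequence and over exons, as plastid gives them. The deposited RPKM is scaled to the reads on all annotated transcripts. For RNA-seq the authors aligned with STAR and counted reads per gene with featureCounts, and the counts are deposited with an FPKM column (kept as a score, since it is 10 times the FPKM from counts and lengths; used only in that comparison). Whether counting used strand is not given in the sources used here. The submitters' processing notes name Bowtie and GRCh38.

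Members and lists were chosen with earlier results of these data known. Estimated counts were rounded and fitted in edgeR 4.0.16 (R 4.3.3; quasi-likelihood test, 2-sided, Benjamini-Hochberg over all genes tested) with a term per lysate, a pulldown effect per location or genotype and library totals as library sizes; total inputs were compared with TMM. Genes needed 64 footprints in each total input concerned or a mean of 64 counts over the 12 RNA-seq libraries with CHX. Entries of several genes, 5.86 to 8.56% of footprints, were not tested. Per-lysate RNA ratios had 0.5 counts added. Pulldown and total input of a number share a lysate, and their replicate differences correlated at 0.598 to 0.883 over genes. Alternatives were TMM, DESeq2 1.42.0, other minima, exon counts, other blocks, transcript totals and each lysate left out. The code was tested on simulated data. Named genes were all members, the 2 highest and 2 lowest of each list by OMM enrichment and the 3 nearest genes of each member, some of which are not reported here; EEF1A1 and EEF2 and the genes of the AKAP1 null comparison were chosen after their values were seen. By library, the largest count of a gene was at most 1.17% of the total.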

Additional observations from a re-analysis of the deposited data

Results flagged for a closer look

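The results below are differences of a member between locations or genotypes, by a test of the difference itself in edgeR, with log2 values. They describe the same lysates repeatedly: the OMM lysates enter both the comparison with the ER and that with the cytosol, and the AKAP1 null lysates enter both null comparisons.

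OMM enrichment exceeded ER enrichment by 4.70 ± 0.18 (SE) for GFM2, 3.86 ± 0.23 for GUF1, 3.07 ± 0.16 for GFM1, 3.06 ± 0.22 for MTIF2, 0.85 ± 0.26 for MTIF3 and 0.41 ± 0.12 for TUFM. It exceeded cytosol enrichment by 3.85 ± 0.17 for GFM2, 3.36 ± 0.23 for GUF1, 2.45 ± 0.23 for MTIF2, 2.25 ± 0.16 for GFM1 and 1.58 ± 0.12 for TUFM. Over all genes the median was 0.28 against the ER and -0.36 against the cytosol, and TUFM lay 0.13 above the former. The differences of MTIF3 and TUFM from the ER did not pass with TMM, DESeq2, transcript totals or no term per lysate. Between the ER and the cytosol TUFM differed by 1.17 ± 0.12, and GFM2 (-0.86 ± 0.17), GFM1 (-0.83 ± 0.16), MTIF2 (-0.62 ± 0.22) and GUF1 (-0.50 ± 0.22) were lower at the ER, where the median of all genes was -0.66 in the same contrast. GFM1 and GFM2 were thus below that median and MTIF2 and GUF1 above it. TUFM stood apart from the other GTPases at the ER: its value was 1.91 above the median gene, and theirs lay between 0.49 below and 0.28 above.

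OMM mRNA enrichment in AKAP1 null cells exceeded that in WT by 1.45 for GFM1, 1.38 for GUF1, 1.30 for GFM2, 1.13 for TUFM and 0.97 for MTIF2 and was lower by -0.49 for MTIF3. It exceeded that in LARP4 null cells by 1.69 for GFM1, 1.53 for GFM2, 1.47 for GUF1, 1.41 for TUFM and 1.09 for MTIF2. In both contrasts GFM1, the member of the 5 with the second lowest WT enrichment, had the largest value.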

How the results depend on the processing

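Of 121 gene results, 61 kept their direction and side of the threshold under every alternative run, and of 62 called gene results 36 did; 6 called results changed sign in some alternative. The 5 calls at the OMM and the 6 higher calls of WT mRNA were kept throughout. The cause of each change below was not tested.

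With TMM, the log2 values that changed sign were, for ER enrichment, GUF1 0.24, MTIF3 0.24 and MTRF1 0.02; for ER minus cytosol, GUF1 0.148, MTIF3 0.167 and MTIF2 0.026; for OMM enrichment, MRRF 0.068; for WT mRNA, MRRF 0.003, MTRF1L 0.051 and TSFM 0.273; for AKAP1 null mRNA, MTRF1L 0.10; for AKAP1 null minus WT, MRRF -0.022; and for LARP4 null minus WT, MTRF1L -0.12 and TSFM -0.14. With DESeq2 they were GUF1 0.21 and MTIF3 0.21 (ER), GUF1 0.087 and MTIF3 0.098 (ER minus cytosol), MRRF 0.10 (OMM), MTRF1L 0.041 and TSFM 0.264 (WT mRNA), MTRF1L 0.12 (AKAP1 null mRNA), and MTRF1L -0.12 and TSFM -0.14 (LARP4 null minus WT). Counted over all exons they were GUF1 -0.061 and MTIF3 -0.124 in the cytosol and MTIF2 0.035 in ER minus cytosol, and with transcript totals, added after seeing the data, GFM2 0.051 and MTIF2 0.141 in the cytosol.

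Counts of members called that moved by over 1.5 times were as follows. ER lower went from 8 to 2 with TMM, DESeq2 or no term per lysate (no replicate block) and to 5 with transcript totals. ER minus cytosol lower went from 4 to 0 with TMM, DESeq2 or no replicate block and to 7 with a minimum of 10 footprints or of 1. WT mRNA lower went from 2 to 0 with TMM, DESeq2 or no replicate block, and LARP4 null mRNA lower to 1, 1 and 0. AKAP1 null minus WT higher went from 5 to 2, and AKAP1 null minus LARP4 null higher from 5 to 0, without the replicate block. AKAP1 null minus WT lower went from 1 to 0 without the replicate block, with a replicate block on the pulldown effect and with a minimum mean of 10 counts. Cytosol lower went from 0 to 1 over all exons (MTIF2, -1.16), and LARP4 null against WT total input higher from 0 to 1 with no minimum (GFM1). Cytosol higher went from 0 to 1 with transcript totals (TUFM, 0.29), where 2381 of 7162 genes were higher and the median gene was at 0.25. Minus the all-gene median, the median member ratio per lysate was 2.27 at the OMM, -0.069 at the ER, -0.075 in the cytosol, 1.097 in WT, 0.71 in LARP4 null and 0.50 without CHX.

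Leaving out each lysate in turn (the arm left with 1 lysate is assumed to vary like the others) gave 5 to 6 members lower at the ER, 0 lower in WT mRNA, 2 to 5 higher and 0 lower in AKAP1 null minus WT, and 0 to 6 higher in AKAP1 null minus LARP4 null. Values that changed sign ranged, in the cytosol, over -0.003 to 0.22 (GUF1), -0.23 to 0.076 (MTIF2), -0.082 to 0.273 (MTIF3) and -0.019 to 0.131 (TUFM); in AKAP1 null mRNA, over -0.15 to 0.16 (MTRF1) and -0.23 to 0.18 (MTRF1L); in LARP4 null minus WT, over -0.30 to 0.13 (GUF1), -0.198 to 0.043 (MRRF), -0.289 to 0.048 (MTIF2) and -0.13 to 0.10 (MTRF1); in AKAP1 null minus LARP4 null, over -0.072 to 0.331 (MTRF1L); in AKAP1 null total input, over -0.17 to 0.11 (GFM1), -0.171 to 0.023 (MRRF) and -0.25 to 0.029 (MTRF1); and in LARP4 null total input, over -0.024 to 0.16 (MRRF), -0.057 to 0.20 (MTRF1), -0.047 to 0.09 (TSFM) and -0.134 to 0.008 (TUFM).

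The labels do not say what a replicate number shares across locations or genotypes, though ER and OMM replicate 2 were sequenced together. Between groups, replicate differences of enrichment correlated at -0.07 to 0.19 over genes, and those of total inputs at 0.187 (WT with AKAP1 null) and 0.34 (WT with LARP4 null). With the replicate block on the pulldown effect MTIF3 was lost from AKAP1 null minus WT and gained in ER minus cytosol (-0.48, adjusted p = 0.0468, edgeR). Depth limits MTRF1, MTRF1L, MRRF and MTIF3 at the OMM, with 14 to 77 pulldown footprints.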
